A study of Drosophila melanogaster with 12 samples.

Results

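The libraries labelled with dsRNA against Elp3 were set against the libraries of cells treated with dsRNA against yellow, over every feature that passed a filter on low counts other than Elp3 itself. These were 9914 of the 23882 features in the deposited table. All cells were Drosophila melanogaster Kc 167 cells, a hemocyte-like line derived from embryos, treated for 5 days with double-stranded RNA (dsRNA), and each group has 3 replicates. Libraries labelled dGcn5 and nej, also with 3 replicates each, were used only to see whether a value of the libraries labelled Elp3 was shared with other dsRNAs. The yellow gene, listed as y, acts in cuticle pigmentation and serves as a control target, so that the yellow cells also received dsRNA and no untreated cells were analysed here. The labels do not say whether replicates were separate cultures, and p-values therefore measure only the spread between these libraries.

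Elp3 is the catalytic subunit of Elongator, a complex that starts the side-chain modification of the wobble uridine in a subset of tRNAs and thereby affects how their codons are read. It was also described as a histone acetyltransferase, and the study considered it beside dGcn5 as a candidate for that activity, while nej is the fly homolog of CBP. In insect cells, long dsRNA is cut by Dicer-2 into short RNAs that guide Argonaute 2 to matching mRNA, and the mRNA is then degraded.

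The pairs of gene-specific primers used to make the dsRNA against Elp3 and yellow are shown because they define what each treatment was directed at. They come from the primer list of the study, are written 5′ to 3′ and are given without the T7 promoter that precedes each of them. The Elp3 gene lies on chromosome 2L and y on chromosome X.
Elp3 forward: tggtacaagggccaaaatct
Elp3 reverse: acagcagcgccaatgtg
yellow forward: aaaaactaagccaacgtcatc
yellow reverse: ccgtggatataggcaaaaa

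In the deposited counts, the Elp3 transcript itself went against the label of a knockdown. The study also measured Elp3 after its depletion in Kc cells by reverse transcription and quantitative PCR, and those values were not analysed here. Elp3 (FBgn0031604, chromosome 2L, 4444732 to 4446765 on the plus strand of BDGP6.32) had 4130, 1900 and 3680 CPM (counts scaled to a common library size, with TMM factors over all libraries) in the libraries labelled Elp3, against 53, 45.9 and 58.8 CPM in the yellow libraries. The libraries labelled dGcn5 had 42.5, 36.8 and 51.6 CPM and those labelled nej 36.3, 41.7 and 50.1 CPM. Every library labelled Elp3 thus lay above every other library, and the mean of 3240 ± 1180 CPM in the libraries labelled Elp3 was 61.6 times that of 52.5 ± 6.46 CPM in the yellow libraries (SD, n = 3 each). The log2 fold change was 5.91 with a standard error of 0.41 (95% confidence interval 4.94 to 6.88), and the adjusted p was 0.0136 (edgeR quasi-likelihood test, adjusted by Benjamini and Hochberg's method across all features that passed the filter). An exact two-sided permutation test gave p = 0.1, the smallest value that 3 libraries against 3 allow.

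The adjusted p of Elp3 passed 0.05 without replicate 1 or without replicate 2 of the libraries labelled Elp3, but was 0.0568 without replicate 3, 0.255 without yellow replicate 1, 0.18 without yellow replicate 2 and 0.0804 without yellow replicate 3. It was 0.665 without both libraries that stood apart, which are described below and were left out together only after the data were seen. The log2 fold change stayed between 5.75 and 6.24 in these edgeR fits. Against the libraries labelled dGcn5 and nej, a contrast that uses no yellow library, it was 6.23 (adjusted p = 1.63e-05, edgeR). Because the count went up and not down, the group is called the libraries labelled Elp3. The table holds 1 count per gene, so that counts inside and outside the segment between the primers could not be separated, and the level of the Elp3 protein was not analysed here.

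The gene MFS18 overlaps Elp3 on the other strand and shares 96 bases of exon with it. It had 23.8, 24.0 and 30.5 CPM in the libraries labelled Elp3, against 27.5, 27.2 and 26.8 CPM in the yellow libraries, a log2 fold change of -0.07 (95% confidence interval -0.62 to 0.47). The groups overlapped, and the high counts of Elp3 did not extend to this neighbour. MFS18 was chosen after its values were seen. The 3 other dsRNA targets gave no difference that passed the test. Gcn5, which encodes the acetyltransferase dGcn5, had 82.5, 97.7 and 142 CPM in the libraries labelled Elp3, against 150, 135 and 128 CPM in the yellow libraries (log2 fold change -0.37, 95% confidence interval -1.04 to 0.30). The y gene had 26.5, 12.1 and 43.2 CPM in the libraries labelled Elp3, against 11, 14.4 and 44.0 CPM in the yellow libraries, so that the yellow libraries were not set apart by the transcript their dsRNA was made against. The log2 fold change of y was 0.21, and it ran from -0.33 without replicate 3 of the libraries labelled Elp3 to 1.08 without yellow replicate 3. For nej the values were 56.1, 231 and 154 CPM in the libraries labelled Elp3, against 193, 205 and 46.8 CPM in the yellow libraries. In these groups, labelled Elp3 and yellow, the low value of nej came from the library with a falling length trend, described next. The libraries labelled nej had 309, 3250 and 698 CPM of nej, above every other library, so that a target above the rest was not particular to Elp3. Gcn5 went the other way, at 28.7, 43.2 and 48.5 CPM in the libraries labelled dGcn5.

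**Figure D1:**
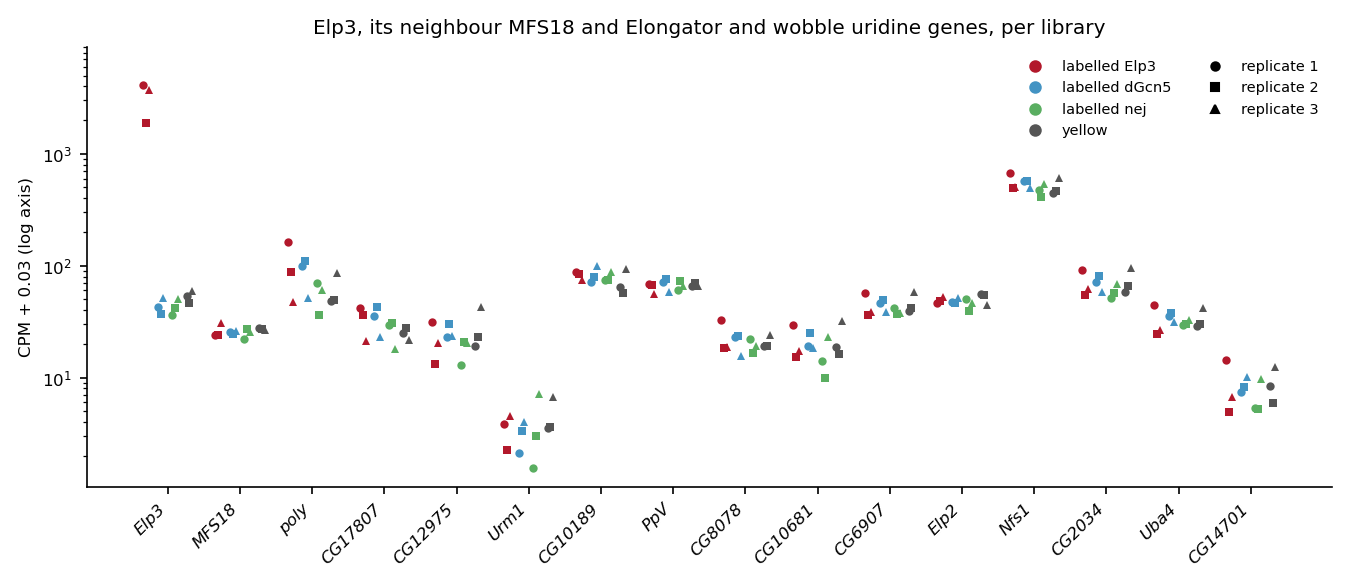
CPM plus 0.03 on a log axis for Elp3, its neighbour MFS18 and 14 Elongator and wobble uridine genes. Each point is 1 library, coloured by group with the libraries labelled Elp3 on the left and the yellow libraries on the right, and shaped by replicate. Elp3 lies between 1900 and 4130 CPM in the libraries labelled Elp3 and between 36.3 and 58.8 CPM in all other libraries, while no other gene shown separates the libraries labelled Elp3 from the yellow libraries.

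Library totals were 19781632 to 21926003 counts in the libraries labelled Elp3 and 22217755 to 23198850 in the yellow libraries. In each group 1 library stood apart from the others in its trend with exon length. Replicate 1 of the libraries labelled Elp3 and yellow replicate 3 had relatively more counts on short genes, with slopes of log2 deviation on log2 exon length of -0.34 and -0.33, while the other 4 libraries had slopes of 0.13 to 0.15. The other libraries labelled Elp3 were not alike beyond this trend. Their replicates 2 and 3 correlated at 0.952 on the log2 CPM scale, against 0.948 for replicates 1 and 2. Replicate 3 correlated more closely with yellow replicate 1, at 0.983, than with either other library labelled Elp3. The hemocyte markers fixed for the check of the cell type were present, and 10 of 12 reached 1 RPKM (CPM divided by the exon length in kilobases) in all 6 libraries. Their summed level was 437 to 1010 RPKM in the libraries labelled Elp3 and 1100 to 1270 RPKM in the yellow libraries, and the groups did not overlap. Most of this sum came from SPARC, Hml and He, and each of these overlapped between the groups. SPARC had 252, 146 and 351 RPKM in the libraries labelled Elp3, against 338, 299 and 661 RPKM in the yellow libraries. Sr-CI, crq and Ppn had log2 fold changes of 0.38, 0.96 and 0.15, and the other markers were lower. The summed markers of neurons reached 2.13 to 4.59 RPKM in the libraries labelled Elp3, against 2.56 to 3.64 RPKM in the yellow libraries. Fat body markers summed to 1.6 to 3.02 RPKM in the libraries labelled Elp3, against 0.763 to 1.15 RPKM in the yellow libraries, and germline markers summed to 28.4 to 33.2 RPKM in the libraries labelled Elp3, against 37.3 to 52.7 RPKM in the yellow libraries, both without overlap. The fat body sum rests on Lsp1beta, at 1.33 to 2.82 RPKM in the libraries labelled Elp3 and 0.256 to 0.867 RPKM in the yellow libraries, while no other marker of that list passed 0.438 RPKM in any of the 6 libraries. The gap of the germline sum rests mostly on bam, at 12.8 to 19.1 RPKM in the libraries labelled Elp3 and 20.8 to 31.6 RPKM in the yellow libraries. The ranges overlapped for muscle markers, at 21.1 to 62.3 RPKM in the libraries labelled Elp3 and 17.5 to 82.1 RPKM in the yellow libraries, and for epithelial markers, at 3.5 to 15.6 RPKM in the libraries labelled Elp3 and 5.93 to 12.5 RPKM in the yellow libraries. Of the neuronal and of the fat body markers, none reached 1 RPKM in all 6 libraries.

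**Figure D2:**
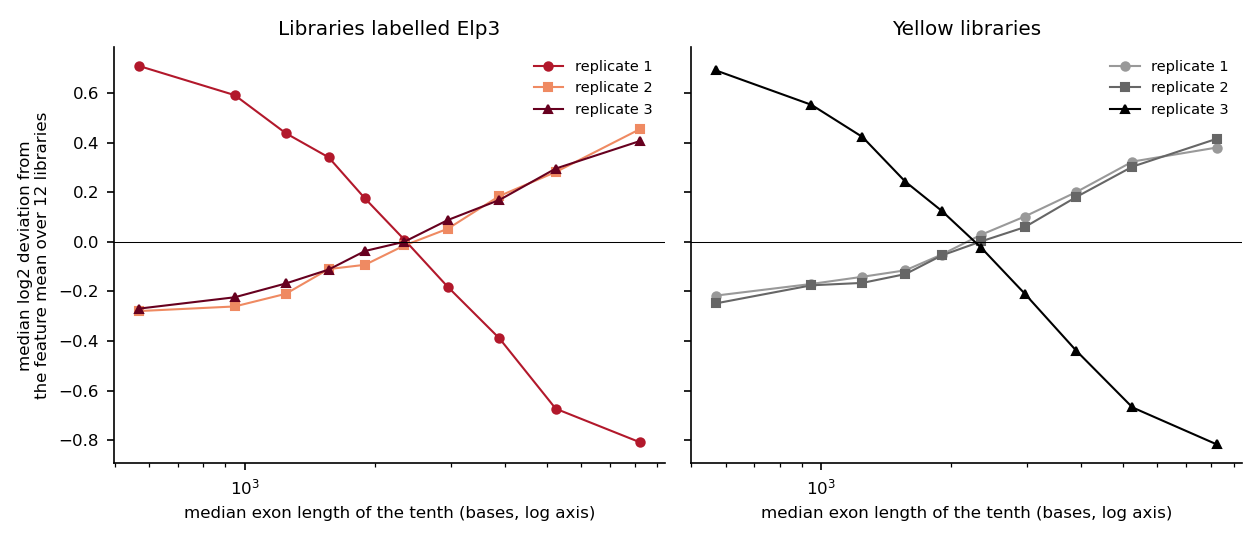
Median log2 deviation from the mean over all 12 libraries, for features split into 10 bins of equal size by exon length (log axis, bases), in each library labelled Elp3 (left) and each yellow library (right). Replicate 1 of the libraries labelled Elp3 and yellow replicate 3 fall with length, while the other 4 libraries rise.

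Apart from Elp3, no feature passed the test in the comparison of the libraries labelled Elp3 with the yellow libraries. At an adjusted p under 0.05 in edgeR, 0 of 9914 features were higher (0.0%) and 0 were lower (0.0%), and the smallest adjusted p was 0.634, for Argk. At an unadjusted p under 0.05, 239 features were higher (2.41%) and 143 were lower (1.44%), together 382. The libraries of the groups did not overlap for 439 features that were higher (4.43%) and 387 that were lower (3.9%).

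Other tools gave few calls. DESeq2, run without the filter, called 18 features higher (0.159%) and 5 lower (0.0441%) of the 11346 for which it gave an adjusted p. The limma-voom fit with a weight for each library called 1, the antisense RNA asRNA:CR45952, with 1414 features at an unadjusted p under 0.05, against 602 with DESeq2. In edgeR, the count at an unadjusted p under 0.05 was 1126 without replicate 3 of the libraries labelled Elp3, 163 without their replicate 2, 148 without yellow replicate 1 and 226 without yellow replicate 2, and no feature passed the adjusted threshold in any of these fits. Without replicate 3 of the libraries labelled Elp3 the smallest adjusted p was 0.0568. Without both libraries that stood apart, a setting chosen after seeing the data, 681 features had an unadjusted p under 0.05 and 0 passed the adjusted threshold.

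The spread between replicates set how small a difference could be seen. Replicates varied with a biological coefficient of variation of 42.7%, and the median half-width of the 95% confidence interval was 0.94 on the log2 scale. The interval lay within -0.58 and 0.58 for 218 features (2.2%) and within -1 and 1 for 3294 features (33.2%). At a mean of 10 to 100 CPM, 2189 of 4607 features (47.5%) lay within -1 and 1, and at 100 CPM or more 968 of 2178 (44.4%). Under 1 CPM none of 946 did. The absence of calls therefore does not show that the transcripts were alike.

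**Figure D3:**
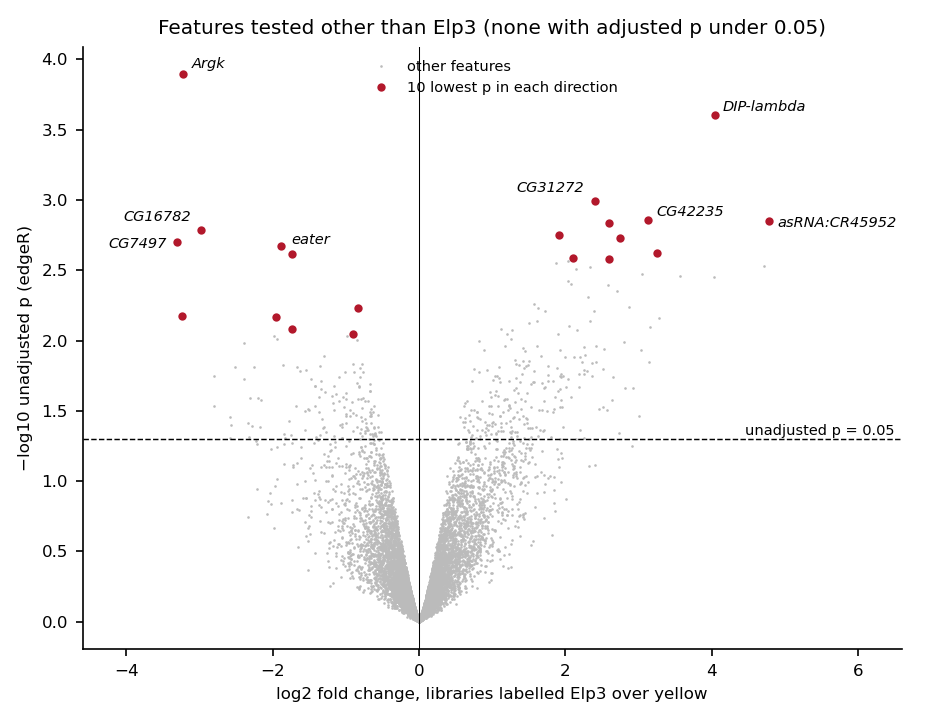
Log2 fold change of the libraries labelled Elp3 over the yellow libraries (x axis) against the −log10 of the unadjusted edgeR p (y axis), for each tested feature other than Elp3. The 10 features with the lowest p in each direction are in red, and the dashed line marks an unadjusted p of 0.05. No feature had an adjusted p under 0.05.

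The features with the lowest p are given as values, since none was called by edgeR. Some of these features passed the filter on low counts only through the group where they are higher. Among those with lower levels, Argk encodes arginine kinase, which buffers ATP through phosphoarginine. Argk had 1.02, 0.872 and 1.94 CPM in the libraries labelled Elp3, against 10.4, 12.9 and 12.4 CPM in the yellow libraries. The groups were far apart, with a log2 fold change of -3.23 (standard error 0.44, unadjusted p = 0.000128, edgeR), and the estimate lay between -3.69 and -2.97 with each library left out. The libraries labelled dGcn5 had 4.44, 4.71 and 9.78 CPM of Argk and those labelled nej 3.64, 15.3 and 7.79 CPM, so that the libraries labelled Elp3 were the lowest of all. Argk was called by DESeq2 against the yellow libraries (adjusted p = 9.79e-10) and also against the libraries labelled dGcn5 and nej (log2 fold change -2.58, adjusted p = 0.00325). These contrasts share the libraries labelled Elp3.

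The gene eater encodes a receptor of hemocytes that binds bacteria for phagocytosis. It had 37.8, 51.3 and 90.0 CPM in the libraries labelled Elp3, against 271, 160 and 228 CPM in the yellow libraries, with a log2 fold change of -1.88 (standard error 0.41, unadjusted p = 0.00214, edgeR). The groups did not overlap, but eater was also at 86.2, 56.0 and 192 CPM in the libraries labelled dGcn5 and at 67.9, 22.1 and 113 CPM in those labelled nej. Most of those values lie nearer to the libraries labelled Elp3 than to the yellow ones, and against them the log2 fold change of eater was -0.54 (unadjusted p = 0.343, edgeR).

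The same holds for slow, which encodes a secreted protein of tendon cells. The slow gene had 9.95, 5.46 and 8.14 CPM in the libraries labelled Elp3, against 36.5, 24.1 and 16.3 CPM in the yellow libraries (log2 fold change -1.73, standard error 0.38). In the libraries labelled dGcn5 it had 4.49, 4.11 and 4.05 CPM and in those labelled nej 6.93, 0.581 and 8.78 CPM, so that the yellow libraries were the highest of all groups. CG7497 had 0.481, 0.184 and 0.710 CPM in the libraries labelled Elp3, against 7.10, 4.53 and 1.94 CPM in the yellow libraries, and reached at most 0.494 CPM in the libraries of the other dsRNAs. CG16782 had 0.642, 0.184 and 0.331 CPM in the libraries labelled Elp3, against 4.42, 2.51 and 1.99 CPM in the yellow libraries. It reached at most 1.88 CPM in the libraries of the other dsRNAs, so that the yellow libraries were again the highest. For CG16782 and CG7497 the log2 fold changes were -2.97 and -3.31. All 4 genes, eater, slow, CG7497 and CG16782, were called lower by DESeq2 with adjusted p-values of 0.0103, 0.0368, 0.00127 and 0.0038.

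The other features in the lower 10 were CG5955, the esterase gene alpha-Est8, the kinase gene IP3K2, which phosphorylates inositol trisphosphate, and the transposable element copies FBti0061900 and FBti0060387. Their log2 fold changes were -0.84, -3.24, -0.91, -1.95 and -1.74. IP3K2 was at 50.4, 44.1 and 57.9 CPM in the libraries labelled Elp3, against 105, 106 and 71.9 CPM in the yellow libraries, where replicate 3 was the lowest. The libraries labelled nej had 33.4, 50.2 and 45.2 CPM of IP3K2 and those labelled dGcn5 61.9, 75.8 and 53.6 CPM. CG5955 was more even within these groups, at 23.6, 19.7 and 24.8 CPM in the libraries labelled Elp3, against 38.0, 40.2 and 41.8 CPM in the yellow libraries. It was at 16.7, 15.7 and 12.9 CPM in the libraries labelled dGcn5 and at 29.3, 67.4 and 28.0 CPM in those labelled nej. The exons of IP3K2 share 1433 bases with lncRNA:CR45018 and those of FBti0061900 lie wholly on another element, so that their counts may hold reads of these partners.

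Among the features with higher levels, the lowest p belonged to DIP-lambda, which encodes a cell surface protein with immunoglobulin domains. DIP-lambda had 1.82, 1.29 and 0.899 CPM in the libraries labelled Elp3, against 0.0447, 0.0881 and 0.0883 CPM in the yellow libraries (log2 fold change 4.04, standard error 0.61, unadjusted p = 0.000251, edgeR). The yellow libraries thus held a few reads each, and 1 library labelled nej, at 1.09 CPM, lay within the range of the libraries labelled Elp3. DIP-lambda passed the filter on low counts only through the libraries labelled Elp3. CG31272 had 46.0, 72.8 and 29.1 CPM in the libraries labelled Elp3, against 8.26, 6.12 and 13.3 CPM in the yellow libraries (log2 fold change 2.40, standard error 0.45). In the libraries labelled dGcn5 CG31272 was at 20.2, 26.7 and 18.7 CPM and in those labelled nej at 11.5, 1.55 and 9.59 CPM, all below the libraries labelled Elp3. The exons of CG31272 share 1018 bases with the antisense RNA asRNA:CR45015.

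The antisense RNA asRNA:CR45952 (chromosome 3L, 21302421 to 21304135, plus strand), which overlaps 1330 exon bases of CG11309 on the other strand, had nearly all of its counts in the libraries labelled Elp3. It had 23, 18 and 19 counts in the libraries labelled Elp3, against 0, 0 and 2 counts in the yellow libraries, and no count in any library labelled dGcn5 or nej. Summed over the group and scaled by library size, this is a ratio of 33.0 with an exact 95% interval of 8.74 to 279, which covers counting error only. The log2 fold change of asRNA:CR45952 in edgeR was 4.78 (unadjusted p = 0.00141), a fitted value that was 7.39 without yellow replicate 3, where the yellow libraries hold no count, and it was called by DESeq2 (adjusted p = 0.0368) and by limma-voom (adjusted p = 0.0228). Against the libraries labelled dGcn5 and nej it was called by both of these tools as well, with adjusted p-values of 0.000225 and 0.00243. However, asRNA:CR45952 passed the filter on low counts only through the libraries labelled Elp3, and all of these calls rest on those libraries. The calls therefore add no support to the counts given here. In the limma-voom fit against yellow, library weights ran from 0.25 for yellow replicate 3 to 4.94 for yellow replicate 1. The strand setting of the counting is not given in the sources used here, so that reads of asRNA:CR45952 and CG11309 cannot be told apart with certainty.

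CG15145 had a similar pattern at a level below the edgeR filter. It had 32, 8 and 28 counts in the libraries labelled Elp3, against 0, 0 and 0 counts in the yellow libraries, and 2 counts in all over the 6 libraries labelled dGcn5 and nej. With 3 counts over the group taken as the floor for the yellow libraries, the ratio of CG15145 was 24.9. This value allows neither for counting error nor for the spread between the libraries labelled Elp3. DESeq2 called CG15145 in both contrasts (adjusted p = 0.00187 against yellow and 0.00344 against dGcn5 and nej). It was named after its values were seen.

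ETHR, the receptor of ecdysis triggering hormone, had 14.1, 22.8 and 6.29 CPM in the libraries labelled Elp3, against 2.05, 2.11 and 2.87 CPM in the yellow libraries (log2 fold change 2.60, standard error 0.52). The libraries labelled dGcn5 were as high, at 14.3, 18.9 and 8.50 CPM, and in those labelled nej it was at 5.24, 0.629 and 4.94 CPM. CG10814 showed the same order, with 93.9, 44.6 and 18.4 CPM in the libraries labelled Elp3, against 2.81, 3.52 and 9.58 CPM in the yellow libraries, and 58.9, 44.5 and 24.5 CPM in the libraries labelled dGcn5. For ltl, a leucine-rich repeat protein of the extracellular matrix, the values were 9.09, 12.9 and 7.38 CPM in the libraries labelled Elp3, against 2.55, 3.26 and 1.94 CPM in the yellow libraries, with 14.1, 9.27 and 6.57 CPM in the libraries labelled dGcn5. These 3 genes did not separate the libraries labelled Elp3 from those labelled dGcn5. Against dGcn5 and nej their log2 fold changes were 1.02, 0.89 and 0.17, with unadjusted p-values of 0.113, 0.339 and 0.77 in edgeR.

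The gene zyd encodes a potassium-dependent sodium/calcium exchanger. It had 1.76, 2.30 and 2.13 CPM in the libraries labelled Elp3, against 0.625, 0.440 and 0.353 CPM in the yellow libraries (log2 fold change 2.10, standard error 0.47), and at most 0.988 CPM in the libraries labelled dGcn5 or nej. The libraries labelled Elp3 were close to each other and above all the rest. CG42235, CG31690 and CG12520 completed the higher 10, with log2 fold changes of 3.13, 2.75 and 2.59 and means of 1.15 to 1.68 CPM in the libraries labelled Elp3, against 0.162 to 0.265 CPM in the yellow libraries. Against the libraries labelled dGcn5 and nej their log2 fold changes were 0.54, 1.46 and 0.05, with unadjusted p-values of 0.424, 0.0842 and 0.952 in edgeR.

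**Figure D4:**
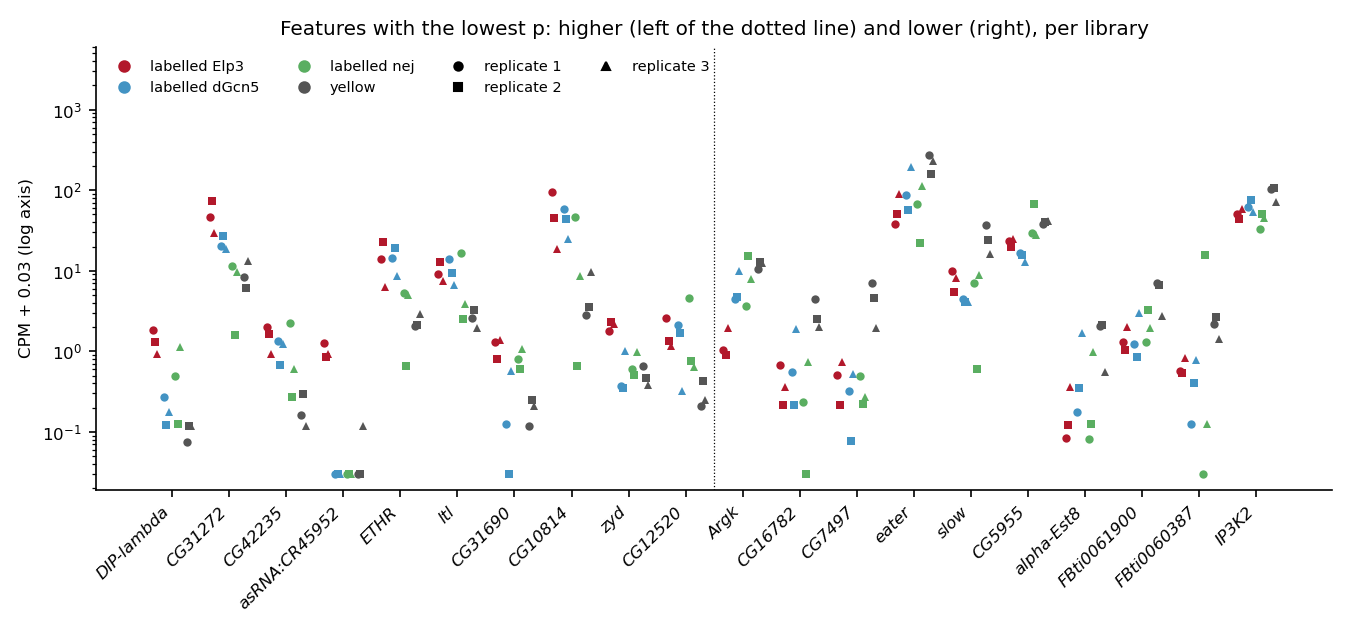
CPM plus 0.03 on a log axis for the 10 features with the lowest p among those higher (left of the dotted line) and the 10 among those lower (right) in the libraries labelled Elp3 than in the yellow libraries. Each point is 1 library, coloured by group and shaped by replicate. The libraries labelled Elp3 and the yellow libraries do not overlap for any of the 20, while the libraries labelled dGcn5 and nej often lie beside the libraries labelled Elp3, as for ETHR, CG10814 and slow.

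DESeq2 also called DIP-lambda, CG31272, CG10814, ETHR, ltl and CG42235, given above, with adjusted p-values of 0.00476, 0.000665, 0.000665, 0.00093, 0.00718 and 0.0233. Several of its calls beyond the features with the lowest edgeR p were high in replicates 1 and 2 of the libraries labelled Elp3 and near the yellow level in replicate 3. Amt, which encodes an ammonium transporter, had 154, 258 and 8.47 CPM in the libraries labelled Elp3, against 5.36, 5.28 and 5.17 CPM in the yellow libraries (DESeq2 log2 fold change 4.73, adjusted p = 2.99e-05). In the libraries labelled dGcn5 Amt had 59.3, 103 and 4.99 CPM, so that there too replicates 1 and 2 were high and replicate 3 was low. TwdlE, a cuticle protein of the Tweedle family, had 10.9, 20.3 and 1.23 CPM in the libraries labelled Elp3, against 0.625, 0.572 and 0.751 CPM in the yellow libraries, and 4.34, 10 and 1.09 CPM in the libraries labelled dGcn5. Cyp309a1, a cytochrome P450, had 68.6, 49.2 and 6.86 CPM in the libraries labelled Elp3, against 1.65, 3.43 and 5.08 CPM in the yellow libraries, and 27.6, 37.2 and 4.35 CPM in the libraries labelled dGcn5. The exons of TwdlE share 968 bases with lectin-28C on the other strand. The size of these differences rests on replicates 1 and 2.

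Of the other features that DESeq2 called, CG5002 and Proc-R were more even. CG5002 had 5.40, 6.52 and 5.30 CPM in the libraries labelled Elp3, against 1.03, 0.969 and 2.12 CPM in the yellow libraries. Proc-R, the receptor of the neuropeptide proctolin, had 7.54, 5.65 and 4.87 CPM in the libraries labelled Elp3, against 1.47, 2.25 and 1.10 CPM in the yellow libraries. It was also at 11.4, 4.98 and 4.40 CPM in the libraries labelled dGcn5 and at 19.9, 7.88 and 5.08 CPM in those labelled nej. All of these lay above the yellow libraries, and against dGcn5 and nej the log2 fold change of Proc-R was -0.53 in edgeR. The remaining features that DESeq2 called were CG13160, CG31642, the beta-galactosidase gene Gal, the cuticle protein gene Cpr64Ac and the element copy FBti0060540, all higher in the libraries labelled Elp3, with DESeq2 log2 fold changes of 2.15, 2.09, 2.06, 3.20 and 2.59.

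Whether a difference from yellow was also a difference from the other dsRNAs was asked with the contrast against the libraries labelled dGcn5 and nej. In edgeR, 0 of 10143 features other than Elp3 had an adjusted p under 0.05 (0.0%), and 130 had an unadjusted p under 0.05 (1.28%). DESeq2 called 3, which were asRNA:CR45952, Argk and CG15145, and limma-voom called 1, asRNA:CR45952. Both contrasts contain the same libraries labelled Elp3, so that their results are not independent.

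The levels themselves were also compared over all groups. The libraries labelled Elp3 lay above all 9 other libraries for 25 features (0.252%) and below all of them for 12 (0.121%). Of these, 15 (0.151%) and 4 (0.0403%) also had an unadjusted p under 0.05 against the yellow libraries in edgeR, and they were named for this after their values were seen. None of them had an adjusted p under 0.05 in edgeR. How often another set of 3 libraries would lie outside the other 9 was not tested, so that these counts do not show differences particular to the label. Besides CG31272, asRNA:CR45952 and zyd, the higher ones were CG18480, lncRNA:CR31451, Cyp309a2, CG43980, CG15128, esn, CG6996, CG12535, PGRP-SC1b and the element copies FBti0062061, FBti0060695 and FBti0019294. Most were low. Besides CG31272, the ones with a mean above 10 CPM in the libraries labelled Elp3 were CG12535, at 21.8, 17.2 and 16.8 CPM in the libraries labelled Elp3 against 7.77, 10.2 and 13.5 CPM in the yellow libraries, and CG43980, at 8.07, 14.0 and 13.2 CPM in the libraries labelled Elp3 against 4.96, 4.27 and 5.30 CPM in the yellow libraries. The exons of CG12535 share 3754 bases with Myc on the other strand, and its counts are uncertain for this reason.

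Besides Argk, the features below all others were AlaRS, ncd and CG15211. AlaRS, which charges alanine tRNA, had 270, 260 and 360 CPM in the libraries labelled Elp3, against 564, 511 and 400 CPM in the yellow libraries (log2 fold change -0.74, 95% confidence interval -1.38 to -0.11). Those labelled dGcn5 had 456, 371 and 529 CPM and those labelled nej 645, 493 and 470 CPM. The gene ncd encodes a minus-end directed kinesin of the spindle. The exons of ncd share 417 bases with genes on the other strand. It had 69.8, 73.5 and 84.2 CPM in the libraries labelled Elp3, against 118, 153 and 114 CPM in the yellow libraries (log2 fold change -0.77, standard error 0.24). CG15211 had 75.5, 54.6 and 67.0 CPM in the libraries labelled Elp3, against 123, 133 and 93.4 CPM in the yellow libraries (log2 fold change -0.85, standard error 0.25). For AlaRS, ncd and CG15211 the unadjusted edgeR p-values were 0.0269, 0.0148 and 0.00994.

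Gene lists were described by their counts and medians, beside a median log2 fold change of -0.02 over all 9914 features. No member of any of the 19 lists had an adjusted p under 0.05 in edgeR, and counts of members at an unadjusted p under 0.05 stand against shares of 2.41% higher and 1.44% lower over all features. When single libraries were left out, the median kept its sign in 3 lists (cell cycle, immunity, and hemocyte matrix and phagocytosis) and changed sign in the other 16. The list closest to Elp3 holds other Elongator subunits and the genes that modify the wobble uridine further. Of its 14 tested members, 5 were higher and 9 lower, 0 had an unadjusted p under 0.05 in edgeR, and the median was -0.10. Leaving out 1 library at a time moved this median between -0.22 without replicate 1 of the libraries labelled Elp3 and 0.17 without yellow replicate 3, so that it has no stable sign.

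Elp2, a subunit built of WD40 repeats, had 46.3, 48.7 and 52.7 CPM in the libraries labelled Elp3, against 55.7, 54.4 and 44.9 CPM in the yellow libraries (log2 fold change -0.09, 95% confidence interval -0.60 to 0.43). The groups overlapped. For poly, the fly Elp6, the libraries labelled Elp3 had 164, 87.9 and 47.3 CPM, against 48.3, 49.0 and 86.3 CPM in the yellow libraries (log2 fold change 0.66, 95% confidence interval -0.42 to 1.75). The high value of poly in each group came from the library with a falling length trend.

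Among the genes of the thiolation branch, which adds sulfur to the same uridine, Urm1 is the ubiquitin-like sulfur carrier, Uba4 its activating enzyme and Nfs1 a cysteine desulfurase. Their log2 fold changes were -0.41, -0.11 and 0.10, with 95% confidence intervals of -1.47 to 0.66, -0.79 to 0.58 and -0.50 to 0.70. The other members, CG17807, CG12975, CG10189, PpV, CG8078, CG10681, CG6907, CG2034 and CG14701, had log2 fold changes between -0.43 (CG12975) and 0.39 (CG17807). The libraries labelled Elp3 overlapped the yellow libraries for every member.

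The aminoacyl-tRNA synthetases, which load tRNAs with amino acids, divided evenly. Of 20 tested cytosolic enzymes 10 were higher and 10 lower, with a median of 0.01, and 1 in each direction had an unadjusted p under 0.05 (all features 2.41% higher and 1.44% lower). AspRS had 1170, 902 and 628 CPM in the libraries labelled Elp3, against 515, 521 and 541 CPM in the yellow libraries (log2 fold change 0.75, 95% confidence interval 0.09 to 1.40), without overlap. AspRS was also at 999, 918 and 502 CPM in the libraries labelled dGcn5 and at 951, 719 and 567 CPM in those labelled nej. Against both, its log2 fold change was 0.21 (unadjusted p = 0.485, edgeR). The exons of AspRS share 1575 bases with genes on the other strand. The lower one was AlaRS, given above. Of 28 tested genes of the unfolded protein and integrated stress responses, 13 were higher and 15 lower with 0 at an unadjusted p under 0.05 in edgeR and a median of -0.03. The members with the lowest p were the kinase-like gene trbl at 0.41 and the co-chaperone gene Sil1 at -0.68 on the log2 scale, neither past the test.

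Genes of the hemocyte matrix and of phagocytosis were mostly lower. Of 26 tested, 21 were lower and 5 higher with a median of -0.66, and 4 lower and 1 higher had an unadjusted p under 0.05, where the shares over all features were 1.44% and 2.41%. The type IV collagen genes vkg and Col4a1 encode the main collagen of the basement membrane. For vkg the libraries labelled Elp3 had 97.1, 95.4 and 226 CPM, against 433, 484 and 202 CPM in the yellow libraries, and for Col4a1 they had 99.0, 112 and 314 CPM, against 566, 675 and 261 CPM in the yellow libraries. Replicates 1 and 2 of the libraries labelled Elp3 were below all yellow libraries for both genes, while replicate 3 lay above yellow replicate 3. Their log2 fold changes were -1.43 and -1.52, with standard errors of 0.49 and 0.57. NimB1, a secreted protein of the Nimrod family, had 0.802, 0.138 and 4.31 CPM in the libraries labelled Elp3, against 16.3, 7.0 and 13.2 CPM in the yellow libraries, and at most 3.61 CPM in the libraries labelled dGcn5 or nej. The fourth lower gene was eater.

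The higher member was crq, the receptor Croquemort for apoptotic cells, at 131, 226 and 86.1 CPM in the libraries labelled Elp3, against 75.9, 84.8 and 65.3 CPM in the yellow libraries (log2 fold change 0.96, standard error 0.38). The exons of crq share 448 bases with ex on the other strand. Hml, the clotting protein Hemolectin, had 402, 689 and 2420 CPM in the libraries labelled Elp3, against 3830, 3430 and 1120 CPM in the yellow libraries, so that the groups overlapped. The median of the list was -1.44 without replicate 3 of the libraries labelled Elp3, the value furthest from the rest, and between -0.85 and -0.48 with any other library left out. It was -0.48 without both libraries that stood apart. Against the libraries labelled dGcn5 and nej the median was -0.10 over the 24 members tested there. The summed hemocyte markers given above moved with this list and 10 of the 12 markers are members of it. That sum was 523 to 1330 RPKM in the libraries labelled dGcn5 and 735 to 945 RPKM in those labelled nej. In bulk RNA, fewer cells of a kind and less RNA per cell cannot be told apart.

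Genes of antiviral and humoral immunity were lower for 30 of 35 tested, with a median of -0.31. Of these 6 had an unadjusted p under 0.05 in edgeR, where 1.44% of all features were lower, none was higher at that threshold, and all 6 encode antimicrobial peptides. AttD, an Attacin, had 7.06, 3.12 and 8.14 CPM in the libraries labelled Elp3, against 12.6, 12.2 and 27.7 CPM in the yellow libraries (log2 fold change -1.55, standard error 0.50). DptB, a Diptericin, had 3.85, 1.88 and 8.0 CPM in the libraries labelled Elp3, against 13.8, 8.67 and 48.8 CPM in the yellow libraries (log2 fold change -2.40, standard error 0.79). CecC, a Cecropin, had 1.28, 0.597 and 1.23 CPM in the libraries labelled Elp3, against 2.46, 2.29 and 6.36 CPM in the yellow libraries (log2 fold change -1.86, standard error 0.59). The groups did not overlap for any of these 3, and yellow replicate 3, which has a falling length trend, was the highest each time.

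AttA, AttB and CecA1 were the others, at log2 fold changes of -2.32, -2.16 and -1.56, again without overlap. AttA and AttB are near-identical copies, as are several Cecropins, so that reads may be divided between them. In the libraries labelled nej DptB was at 1.28, 1.64 and 13.6 CPM and AttD at 1.18, 1.93 and 7.27 CPM. For both genes nej replicates 1 and 2 lay below all libraries labelled Elp3, while nej replicate 3 reached the yellow range for DptB but not for AttD. Against dGcn5 and nej the list had a median of 0.01. Its median against yellow lay between -0.68 without replicate 3 and -0.16 without replicate 1 of the libraries labelled Elp3, and was -0.11 without both libraries that stood apart. The receptors and signalling genes of these pathways showed smaller values, with log2 fold changes of 0.29 for imd, -0.14 for Rel, -0.05 for Sting and -0.21 for PGRP-LC.

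**Figure D5:**
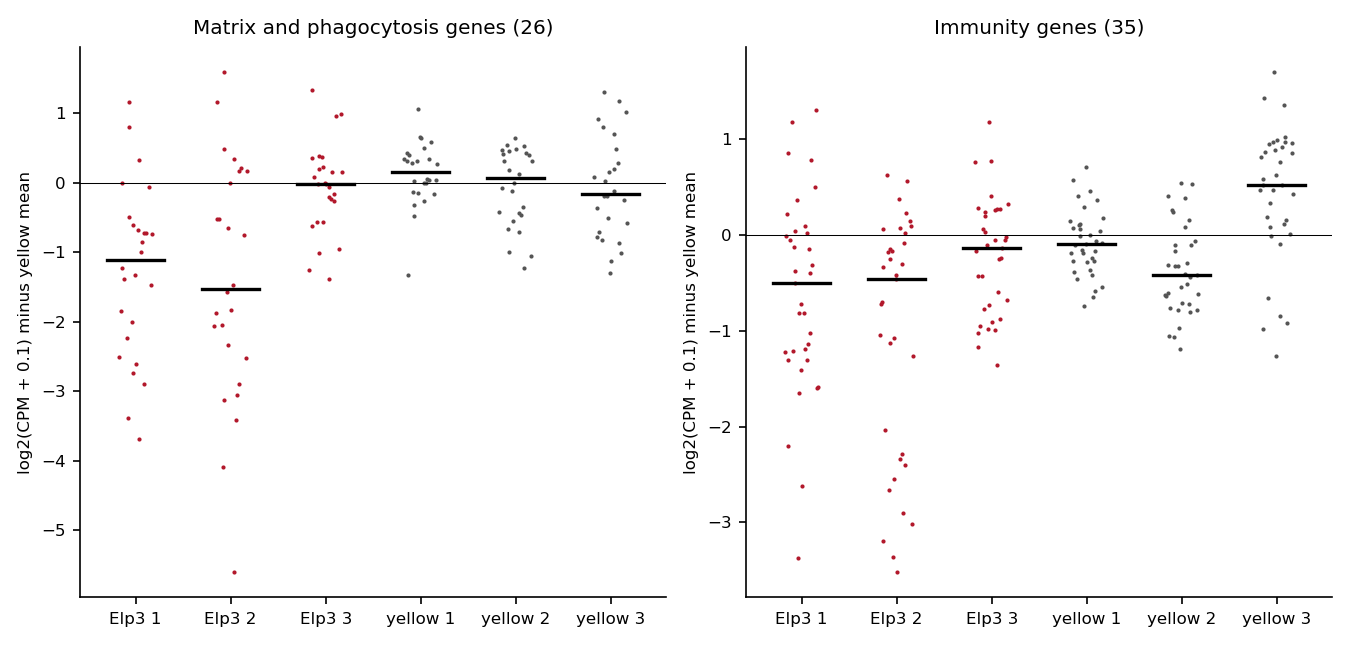
Log2(CPM + 0.1) of each gene minus its mean over the yellow libraries, for the 26 genes of hemocyte matrix and phagocytosis (left) and the 35 genes of immunity (right), in each library labelled Elp3 (red) and each yellow library (grey). Each point is 1 gene, with horizontal jitter, and the black bar is the median. On the left the medians of replicates 1 and 2 of the libraries labelled Elp3 lie below all yellow medians and that of replicate 3 lies between them, and on the right yellow replicate 3 has the highest median while the other yellow libraries overlap the libraries labelled Elp3.

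Genes of the RNA interference machinery, on which the treatment depends, gave a median of -0.09 over 22 tested members, of which 8 were higher and 14 lower. The median was 0.10 without replicate 1 of the libraries labelled Elp3 and -0.23 without yellow replicate 3. Only Hen1, which methylates the ends of small RNAs, had an unadjusted p under 0.05 among them, at 22.7, 18 and 31.8 CPM in the libraries labelled Elp3, against 39.3, 31.8 and 43.9 CPM in the yellow libraries (log2 fold change -0.68, standard error 0.29). The groups met at 31.8 CPM, the highest value of Hen1 in the libraries labelled Elp3 and the lowest in the yellow libraries.

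Lists tied to the subject of the study stayed near the median of all features. Of 37 histone acetyltransferase and deacetylase genes 16 were higher and 21 lower, with a median of -0.04, and of 45 genes of double-strand break repair and checkpoints 20 were higher and 25 lower, with a median of -0.02. In neither list did any member have an unadjusted p under 0.05 in edgeR. HDAC1, the class I deacetylase known as Rpd3, had 200, 183 and 202 CPM in the libraries labelled Elp3, against 252, 284 and 234 CPM in the yellow libraries, which is without overlap (log2 fold change -0.42, 95% confidence interval -0.93 to 0.10). HDAC6, a deacetylase of tubulin, had 39.6, 50.4 and 36.7 CPM in the libraries labelled Elp3, against 32.9, 36.5 and 27.9 CPM in the yellow libraries (log2 fold change 0.37, 95% confidence interval -0.21 to 0.94). The exons of HDAC6 share 1106 bases with asRNA:CR44998. In the repair list the lowest p in each direction belonged to okr, the fly Rad54, at 0.53 and Nse4, a subunit of the SMC5/6 complex, at -0.46 on the log2 scale.

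Of 40 cell cycle genes 29 were lower and 11 higher, with a median of -0.12 that lay between -0.17 and -0.03 with each library left out, and 0 had an unadjusted p under 0.05 in edgeR. RnrS, the small subunit of ribonucleotide reductase, had a log2 fold change of 0.67 and stg, the Cdc25 phosphatase String, of -0.61. Among 17 microtubule genes, the alpha-tubulin gene alphaTub84D had 137, 132 and 157 CPM in the libraries labelled Elp3, against 187, 221 and 209 CPM in the yellow libraries (log2 fold change -0.55, 95% confidence interval -1.08 to -0.02). The groups did not overlap for alphaTub84D, which encodes one of the near-identical major alpha-tubulins, and the median of the list was -0.09.

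The heat shock genes had a median of -0.27 over 20 members that lay between -0.35 and 0.22 with each library left out. Hsp23, a small heat shock protein, had 2600, 2040 and 378 CPM in the libraries labelled Elp3, against 472, 241 and 657 CPM in the yellow libraries, and 1300, 2130 and 712 CPM in the libraries labelled dGcn5. Replicate 3 of the libraries labelled Elp3 thus lay within the yellow range, and the log2 fold change of 1.84 has a 95% confidence interval of 0.20 to 3.47. The lowest log2 fold changes in this list belong to the near-identical Hsp70 copies, whose reads may be divided between them, with -0.97 for Hsp70Bb and an unadjusted p of 0.325 in edgeR.

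Hormone and signalling lists held single genes. Of 20 ecdysone response genes 11 were higher and 9 lower, with a median of 0.01. Besides ETHR, ImpE3 had 5.35, 4.36 and 1.99 CPM in the libraries labelled Elp3, against 1.56, 1.01 and 1.77 CPM in the yellow libraries, and Eip55E, an enzyme of cysteine synthesis, had 395, 180 and 590 CPM in the libraries labelled Elp3, against 885, 751 and 957 CPM in the yellow libraries. Both were without overlap, at log2 fold changes of 1.40 and -1.18. Eip55E was also at 354, 253 and 583 CPM in the libraries labelled dGcn5 and at 385, 599 and 556 CPM in those labelled nej. The receptor gene EcR had a log2 fold change of -0.25 and its partner usp of 0.23. Of 18 Notch genes 8 were higher and 10 lower with a median of -0.04, and the Notch ligand gene Ser had 4.87, 9.69 and 4.87 CPM in the libraries labelled Elp3, against 3.35, 3.04 and 2.56 CPM in the yellow libraries (log2 fold change 1.11, standard error 0.43). Ser was at 11.7, 23.5 and 8.31 CPM in the libraries labelled nej and at 4.39, 3.23 and 4.0 CPM in those labelled dGcn5. Of 21 genes of JNK signalling and apoptosis 10 were higher and 11 lower with a median of 0.00, and wgn, a receptor of the tumor necrosis factor family, had 50.5, 42.1 and 86.6 CPM in the libraries labelled Elp3, against 103, 109 and 94.7 CPM in the yellow libraries (log2 fold change -0.79, standard error 0.32).

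The lists of ribosomal, oxidative phosphorylation and proteasome genes, whose median exon lengths of 783 to 1393 bases lie below the 2112.5 bases over all features, had small medians that depended on the libraries with a falling length trend. Cytoplasmic ribosomal proteins were higher for 75 of 87 members with a median of 0.10, which was -0.37 without replicate 1 of the libraries labelled Elp3 and 0.58 without yellow replicate 3. Without both, the median was 0.11. The median of 72 nuclear genes of oxidative phosphorylation was 0.07 and that of 73 mitochondrial ribosomal proteins was -0.14, and with each library left out these ranged between -0.40 and 0.49 and between -0.51 and 0.18. The median of 35 proteasome genes was -0.13, of which 30 were lower, and ranged between -0.34 and 0.14. The vacuolar ATPase, whose genes are not short, had 13 of 17 subunits higher and a median of 0.10, which was -0.05 without replicate 1 of the libraries labelled Elp3. No member of these 5 lists had an unadjusted p under 0.05 in edgeR, and they give no direction that holds over the libraries.

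Transcripts of the mitochondrial genome were lower for 14 of 15 features, a class looked at after the values were seen. Their median was -0.79, and 6 were lower at an unadjusted p under 0.05, where 1.44% of all features were. The complex I gene mt:ND4 had 49.9, 105 and 94.2 CPM in the libraries labelled Elp3, against 141, 211 and 179 CPM in the yellow libraries (log2 fold change -1.10, standard error 0.36). The complex III gene mt:Cyt-b had 194, 477 and 413 CPM in the libraries labelled Elp3, against 620, 867 and 683 CPM in the yellow libraries (log2 fold change -1.0, standard error 0.40). Neither overlapped between the groups. In contrast the abundant mt:CoI, of complex IV, had 3300, 6010 and 2860 CPM in the libraries labelled Elp3, against 3880, 4750 and 3310 CPM in the yellow libraries (log2 fold change 0.02). Against dGcn5 and nej the median of the class was -0.41, and against yellow without yellow replicate 3 it was -0.42.

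Small nuclear RNAs, which carry no poly(A) tail and were measured here in libraries of polyadenylated RNA, were lower for all 13 features tested, also seen only after looking at the values. Their median was -0.995, and between -1.32 and -0.70 with each library left out. The U2 gene snRNA:U2:34ABb had 2.51, 1.70 and 3.17 CPM in the libraries labelled Elp3, against 4.91, 3.39 and 9.89 CPM in the yellow libraries. The U2 and U1 genes are near-identical copies whose values are not independent, and all were low. Of 387 noncoding RNA genes 231 were higher, with a median of 0.19 that ran from 0.05 without replicate 1 of the libraries labelled Elp3 to 0.38 without yellow replicate 3. Of 971 transposable element copies 558 were higher, with a median of 0.09 that was 0.31 without replicate 1 of the libraries labelled Elp3 and -0.03 without yellow replicate 3. At an unadjusted p under 0.05 in edgeR, 22 noncoding RNA genes were higher and 3 lower, and 31 element copies were higher and 8 lower, against 2.41% and 1.44% of all features.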

How the data were processed

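Stranded libraries of polyadenylated RNA were sequenced from Kc 167 cells after 5 days of dsRNA. According to the methods of the study, the authors aligned trimmed reads, freed of ribosomal RNA, to BDGP6.32 with STAR and counted them on exons with featureCounts. The values the authors deposited are raw counts per feature. Strand setting, use of molecular identifiers and reads with several matches are not given in the sources used here. Intervals for counts cover counting error only.

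Groups follow the labels. The 6 libraries were fitted with edgeR 4.0.16 in R 4.3.3 (TMM, filter on low counts with a minimum of 10, quasi-likelihood test, no covariate, Benjamini-Hochberg threshold 0.05), and the contrast against dGcn5 and nej with 9 libraries. CPM were scaled over all 12 libraries. List medians per library used log2(CPM + 0.1). Alternatives were DESeq2 1.42.0, its size factors, no filter, at least 10 counts in every library, all 12 libraries in 1 fit, a replicate block, length offsets, limma-voom (limma 3.58.1), and each library left out. The scripts were tested on simulated data.

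Named features are the dsRNA targets, the 10 with the lowest p in each direction, the Elongator list and the member of each other list with the lowest p in each direction. Others were named after their values were seen. The members and the 19 lists were chosen with earlier results of these data known. List entries not matched by symbol were left out, and 1 gene of the Elongator list is not reported here.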

Additional observations from a re-analysis of the deposited data

How the results depend on the processing

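The count of features called other than Elp3 against yellow was 0 in edgeR under every alternative, 23 with DESeq2, for which 5111 features had no adjusted p, and 1 with limma-voom. Against dGcn5 and nej it was 0 in edgeR, 3 with DESeq2 and 1 with limma-voom. At an unadjusted p under 0.05 the edgeR fits against yellow gave 382 features, 576 without the filter, 878 with length offsets and 1017 with length offsets and the replicate block. The log2 fold change of Elp3 was 5.75 to 6.24 with each library left out and 5.85 without both libraries that stood apart (adjusted p = 0.665, edgeR). With the replicate number as a block it was 5.86 (adjusted p = 0.291, edgeR), with 0 calls other than Elp3 and 324 features at an unadjusted p under 0.05, 144 higher and 180 lower, and the block changed no other call. Deviations of same-numbered libraries correlated at -0.639, 0.722 and -0.101, and the libraries labelled Elp3 with numbers 1, 2 and 3 correlated best with yellow 3, 2 and 1, so that the numbers were not taken to pair these groups. The 4 libraries numbered 3 nonetheless had the highest scores on the second principal component over all 12 libraries, 27.2 to 65.6 against at most 9.06 in the others. The cause of these changes was not tested, and fits without a library hold fewer libraries.

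Direction turned for values whose confidence intervals include 0. The log2 fold change of nej was -0.00 and turned to 0.0063 without the filter, 0.0066 with at least 10 counts, 0.0403 with the replicate block, 0.0113 with length offsets and 0.0058 with both of these. Without both libraries that stood apart, the log2 fold change of MFS18 was 0.0251, the log2 fold change of CG8078 was -0.0158 and the log2 fold change of Vha68-1 was 0.0578. With each library left out, log2 fold changes ran from -0.33 to 1.08 for y, -0.48 to 0.40 for nej, -0.22 to 0.0257 for MFS18, -0.75 to 0.0061 for CG12975, -0.14 to 0.32 for CG8078, -0.45 to 0.21 for CG10681, -0.30 to 0.0905 for CG6907, -0.0128 to 0.26 for Nfs1, -0.31 to 0.13 for CG2034, -0.37 to 0.11 for Uba4, -0.61 to 0.25 for CG14701, -0.075 to 0.95 for Vha13, -0.34 to 0.0125 for Vha68-1 and -0.12 to 0.54 for mRpS9. Of the other values of named features, 1462 kept their direction and side of the threshold and 23 passed it only under an alternative. Of the list medians, 292 moved by less than the spread between replicates and 12 by more.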
